A study of Mus musculus with 6 samples.

Results

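The genes described here encode the nuclear subunits of respiratory complexes II, III, IV and V of mitochondria, with the assembly factors that carry the same gene stems. They were chosen by symbol: every row whose name starts with Sdha, Sdhb, Sdhc, Sdhd, Uqcr, Cox4, Cox5, Cox6, Cox7, Cox8 or Atp5. This gave 51 of the 22488 genes in the tables, with 8 in complex II, 8 in complex III, 18 in complex IV and 17 in complex V. Of the 51 members, 45 are structural subunits and 6 are other proteins, namely Sdhaf1 to Sdhaf4, Cox7a2l and Atp5s. RNA of whole livers was sequenced from male WT C57BL/6 mice aged 6 to 8 weeks that had all been fasted for 16 h. The control group (3 libraries) had 200 µl of HBSS, a salt buffer, injected into the abdominal cavity, although another label of these samples reads as untreated. The LPS group (3 libraries) received 6 mg/kg of lipopolysaccharide, which forms the outer surface of Gram-negative bacteria, by intraperitoneal injection too. The sources used here give neither the time from injection to sampling nor whether each library came from a separate mouse. P-values therefore reflect the spread of these 6 libraries alone, which may be partly technical.

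Complexes II to IV pass electrons from succinate and from reduced ubiquinone to cytochrome c and on to oxygen, and complexes III and IV pump protons across the inner mitochondrial membrane as they do so. Complex V, the ATP synthase, lets the protons flow back through a rotating ring of c subunits and uses the turning of a central stalk to make ATP in its F1 head. All subunits of complex II are nuclear, whereas complexes III, IV and V each also hold subunits made inside the organelle from mitochondrial DNA. Hepatocytes, the main cells of the liver, are rich in mitochondria and depend on these complexes for gluconeogenesis, urea synthesis and the oxidation of fatty acids during fasting.

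Total counts per library ran from 11488525 to 20282004. The hepatocyte markers were the dominant marker set in every library, with a summed level of 118627 to 131648 CPM (counts scaled to a common library size) in control and 73688 to 99127 in LPS livers. Of 11 tested hepatocyte markers 8 fell and 1 rose, where 31.0% of all tested genes fell and 31.3% rose. All 6 tested neutrophil markers rose, and the set summed to 4.21 to 7.63 CPM in controls and 154 to 194 CPM in LPS livers. Some of them passed the filter on low counts through their LPS libraries, such as Mmp8 and Cxcr2 with 0 to 2 counts in each control library. Ly6g, Mpo and Elane were too low to be tested. Of 8 Kupffer cell markers 7 fell and 1 rose, and the set summed to 279 to 318 CPM and 73.0 to 120 CPM. In whole tissue, fewer cells of a type and less RNA per cell cannot be told apart, and the part of these marker shifts in the members' values was not tested. LPS replicate 3 had a TMM scaling factor of 0.909 against 1.00 to 1.04 in the other 5 libraries.

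The promoters are shown first because many genes of oxidative phosphorylation are known to carry sites for nuclear respiratory factor 1 (Nrf1) and for the ETS-type factor GABP, and because members with the same letters upstream did and did not pass the test between the groups. RefSeq windows on the build GRCm38.p6, from 250 bases before to 50 bases after the annotated start, matched 40 of the 51 members. The letters searched on both strands were GCGCANGCGC for NRF1, CCGGAAG for ETS factors, TCAAGGTCA for oestrogen-related receptors (ERR), AAGATGGCG for YY1 and TGACGTCA for the cyclic AMP response element (CRE). Matches of different motifs did not overlap in the windows printed. In the lines below the sequence upstream of the start is printed 5′ to 3′ in the direction of the gene and ends at the base before the start, with matches to NRF1 or ETS letters on either strand in capitals (CTTCCGG is the ETS match read on the other strand). The first 5 genes fell in LPS livers, and the last 3 did not pass the test. Cox6a1 and Cox6b1 did pass in some other settings, as given below.
Sdha, chr13:74350241-74350350, minus strand: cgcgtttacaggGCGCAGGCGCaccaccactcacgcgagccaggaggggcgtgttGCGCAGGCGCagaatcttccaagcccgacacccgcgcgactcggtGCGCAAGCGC
Sdhd, chr9:50603850-50603940, minus strand: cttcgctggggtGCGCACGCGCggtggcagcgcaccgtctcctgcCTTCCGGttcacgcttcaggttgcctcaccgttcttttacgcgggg
Uqcr11, chr10:80406822-80406899, minus strand: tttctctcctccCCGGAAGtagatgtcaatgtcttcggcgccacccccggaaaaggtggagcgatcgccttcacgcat
Atp5h, chr11:115419920-115420072, minus strand: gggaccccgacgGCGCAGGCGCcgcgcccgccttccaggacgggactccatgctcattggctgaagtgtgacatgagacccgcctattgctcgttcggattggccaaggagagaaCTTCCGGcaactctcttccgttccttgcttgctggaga
Atp5k, chr5:108434400-108434461, minus strand: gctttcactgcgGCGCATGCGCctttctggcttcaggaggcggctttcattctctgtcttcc
Cox6a1, chr5:115348959-115349132, minus strand: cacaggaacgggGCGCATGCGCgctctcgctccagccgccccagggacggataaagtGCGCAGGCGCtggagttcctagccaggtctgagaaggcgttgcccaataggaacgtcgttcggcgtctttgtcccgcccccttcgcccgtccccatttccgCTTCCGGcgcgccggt
Cox6b1, chr7:30626115-30626154, minus strand: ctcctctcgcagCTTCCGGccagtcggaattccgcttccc
Atp5g2, chr15:102671048-102671101, minus strand: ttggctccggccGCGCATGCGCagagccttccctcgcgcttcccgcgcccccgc

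The NRF1 letters were found in 11 of 40 member promoters (27.5%), against 4.78% of all 27025 promoters and 10.6% of the 9548 promoters of tested genes. The ETS letters were found in 14 members (35%), against 9.12% of all and 18.2% of tested genes. Sdha, the flavoprotein of complex II, carried 3 NRF1 matches, which begin 98, 55 and 10 bases before the start. Cox6a1 carried 2 NRF1 matches and 1 ETS match. ERR letters stood in 2 members, Atp5g3 and Sdhd, and in 0.407% of all promoters. The CRE letters stood only in Uqcrfs1 and the YY1 letters only in Atp5j2 among the matched members. The median GC content was 56.8% in the member promoters and 60.7% in those of tested genes. Of the 11 members with NRF1 letters 8 fell and 0 rose, with a median log2 fold change of -0.82. Of the 14 with ETS letters 8 fell and 0 rose, with a median of -0.57. Over all tested genes 31.0% fell and 31.3% rose, and the shares among tested genes with the same letters were not counted. Of the 20 members with either motif 12 fell. Of the 17 tested members with neither motif 13 fell and 1 rose, with a median of -0.53, so falls were found in members with and without these letters. A match is a description of the letters, not of a bound site.

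Most members were lower in LPS livers. Genes were compared with edgeR's quasi-likelihood test, and rose or fell means an adjusted p under 0.05 (Benjamini-Hochberg over all 12078 tested genes). Of the 51 members 45 passed the filter on low counts, and the other 6 are tissue-specific forms of complex IV at or near 0. Of the 45 tested members 29 fell, where 31.0% of all tested genes fell. Only Cox7a2l rose (1 of 45), where 31.3% of all tested genes rose. The members that changed in either direction, 30 of 45, stand beside 62.3% of all tested genes, a share near that of the members. The median log2 fold change of the tested members (LPS minus control) was -0.53 and that of all tested genes was 0.013. The values of 29 members lay lower in all 3 LPS libraries than in any control library, against 33.4% of all tested genes, and those of 1 member lay higher, against 34.0%. The 30 members without overlap in either direction stand beside 67.4% of all tested genes. Only 4 members fell at least 2-fold on the fitted scale (Sdhaf4, Cox6b2, Atp5d and Atp5o), so most falls were shallower than that. Cox6b2, which is included in these counts, has few reads and passed the filter on low counts through its control libraries.

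**Figure D1:**
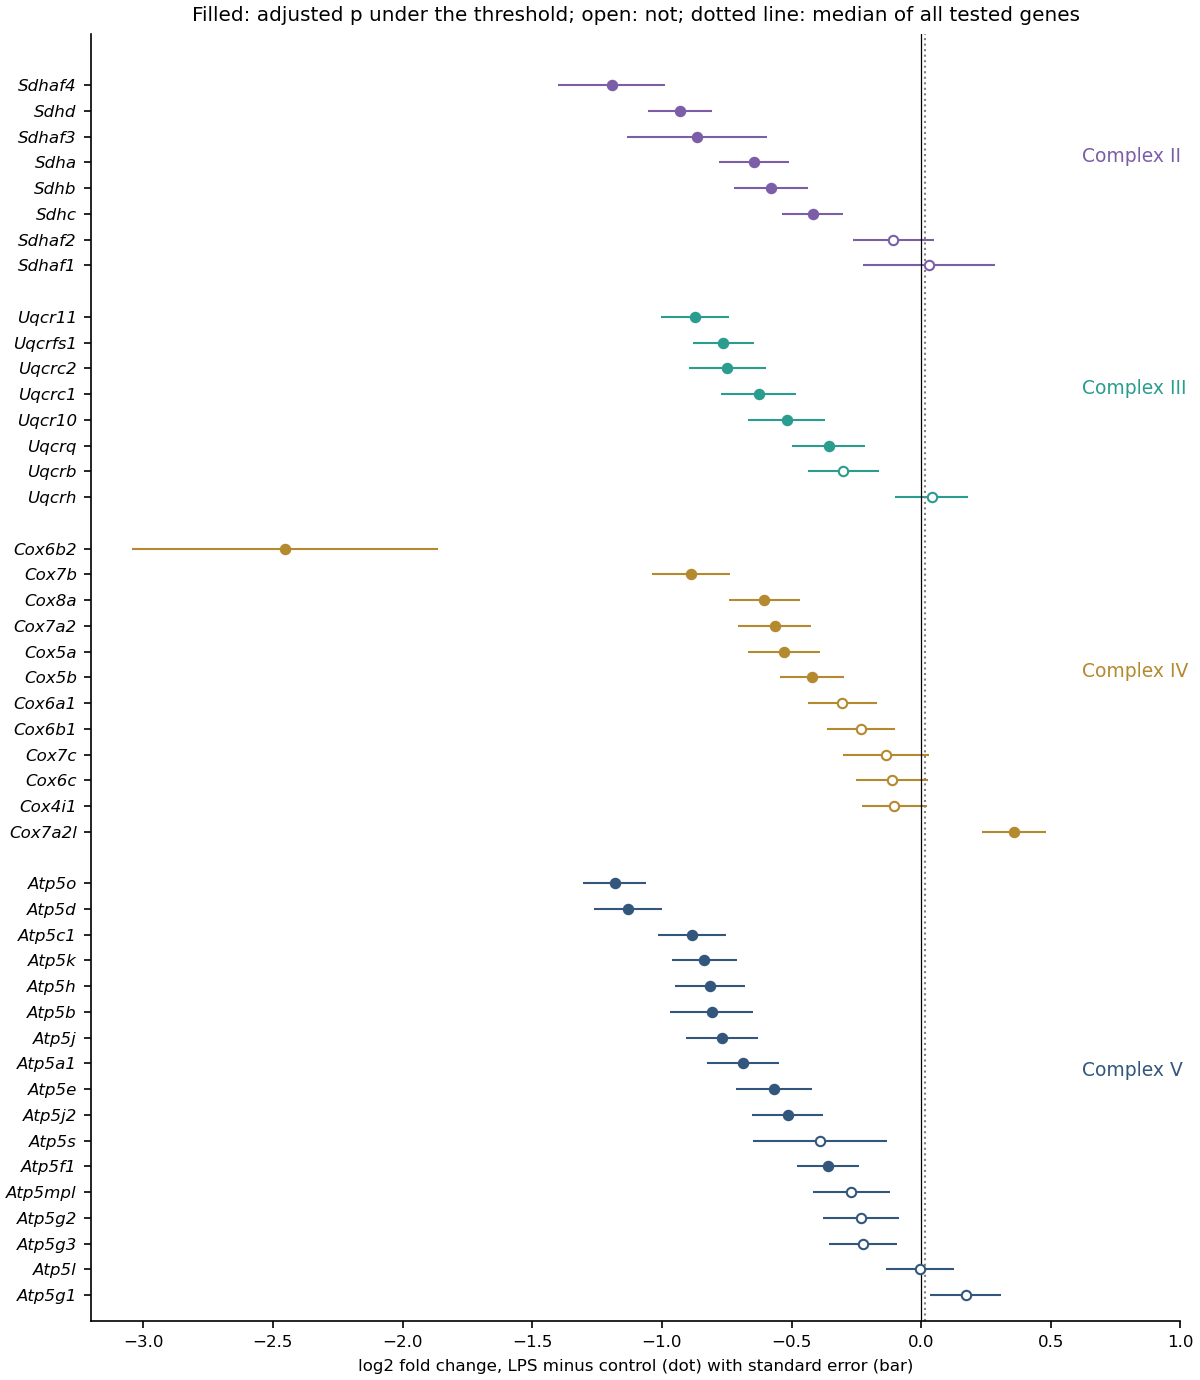
Log2 fold change (LPS minus control, horizontal axis) of the 45 tested members grouped by complex, as a dot with its standard error; filled dots passed the adjusted p threshold and open dots did not. The dotted line is the median of all tested genes (0.013), and 41 of the 45 dots lie below 0.

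Summed over its members, each complex was lower in LPS livers, by different amounts. Complex II summed to 995, 963 and 969 CPM in the controls and to 585, 579 and 708 CPM in the LPS livers, which is 64.0% of the control mean. Complex V went from 4797, 4768 and 4606 CPM to 3007, 2750 and 3451 CPM, or 65.0%. In both complexes LPS replicate 3 was the highest LPS library, and all LPS values lay below all control values. Complex III went from 1665, 1789 and 1500 CPM to 1245, 1115 and 1223 CPM, or 72.3%. Complex IV differed least, from 2019, 2108 and 1720 CPM to 1663, 1492 and 1633 CPM, or 81.9%. Control replicate 3 was the lowest control library in complexes III and IV, and in complex IV it stood only a little above the highest LPS library. These sums are led by the abundant genes, and the order of the complexes was not tested. All members together took 0.952% ± 0.0346 (SD) of the counts in controls and 0.632% ± 0.0346 in LPS livers.

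**Figure D2:**
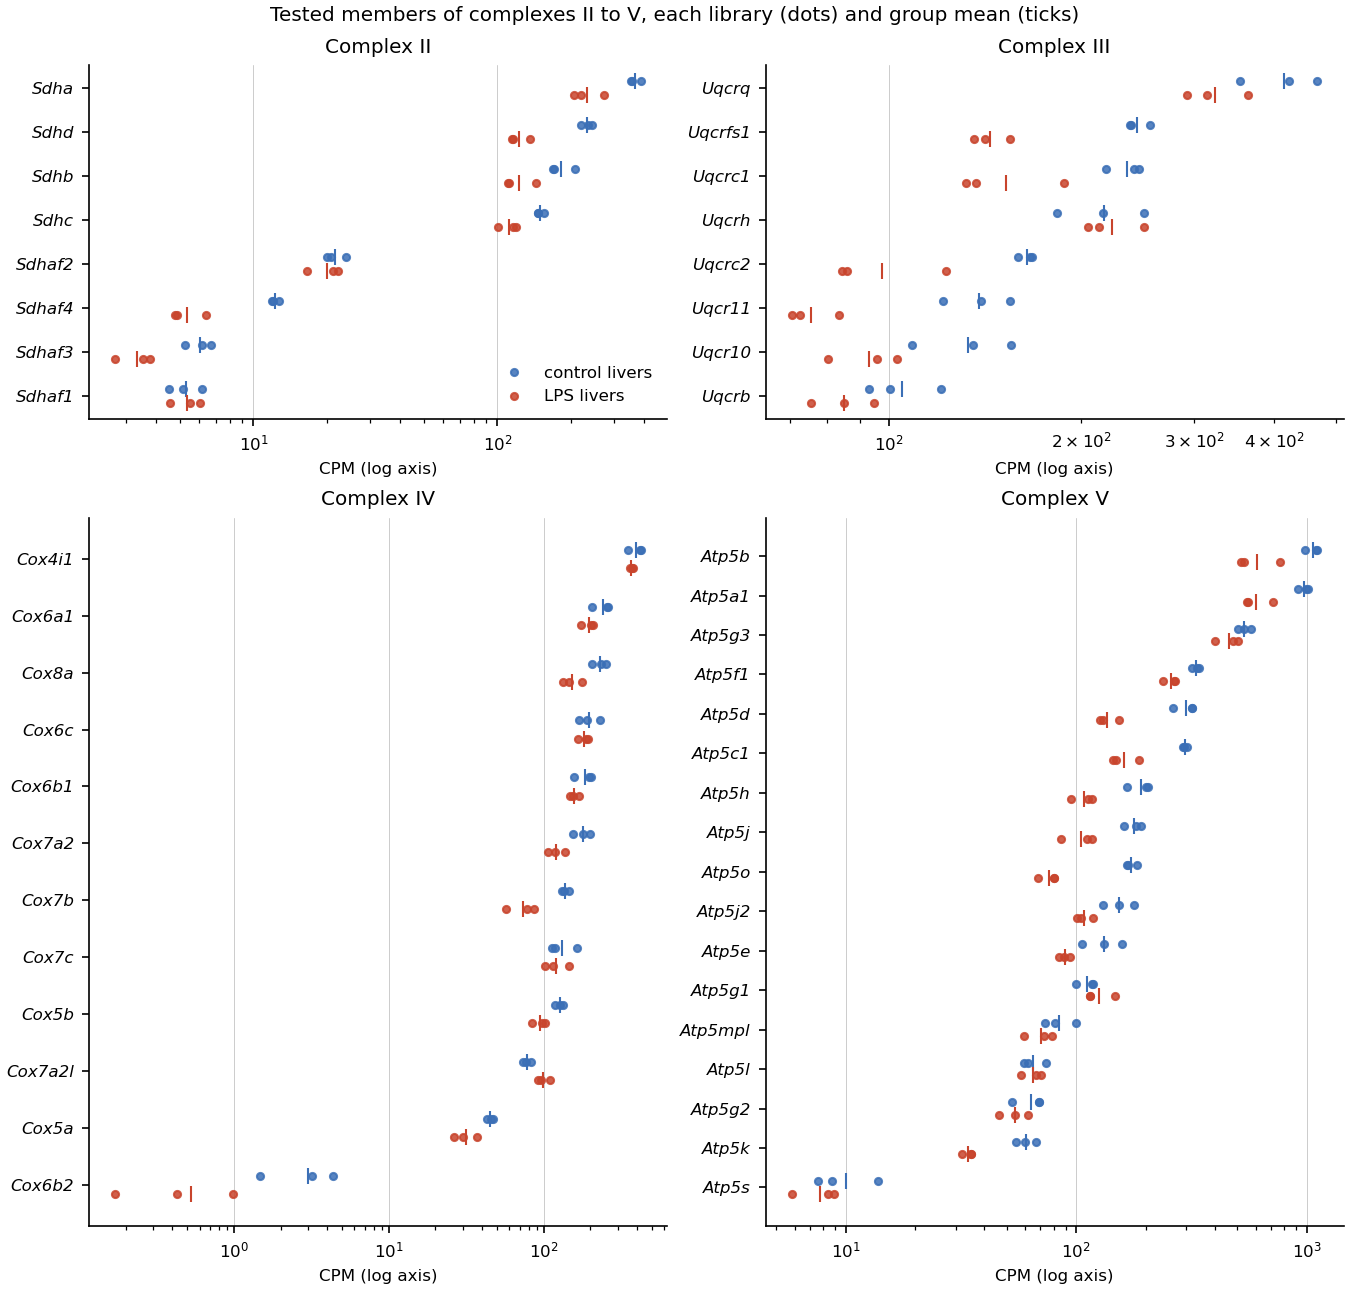
CPM (horizontal log axis, a separate range in each panel) of every tested member in each library, by complex. Blue dots are the 3 control libraries, red dots the 3 LPS libraries, and ticks are group means. The groups are apart for 30 members and overlap for 15, for example Uqcrh, Cox6c and Atp5l.

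Complex II, succinate dehydrogenase, oxidises succinate in the citric acid cycle and reduces ubiquinone. All 4 of its subunits fell, and so did 2 of its 4 assembly factors, with a median log2 fold change of -0.61 over the 8 genes. Sdha, the flavoprotein that holds the active site (chromosome 13, 74322255 to 74350240), was the most abundant, with 352, 357 and 386 CPM in control and 207, 220 and 274 CPM in LPS livers. Its log2 fold change was -0.64 (SE 0.13, adjusted p = 0.000888), and the highest LPS library was well below the lowest control. Sdhb, whose iron-sulfur clusters carry electrons away from the flavin, read 208, 171 and 169 CPM in controls and 111, 111 and 144 CPM in LPS livers (-0.58, SE 0.14, adjusted p = 0.00278). Its lowest values were LPS replicates 1 and 2, and its groups did not overlap. Sdhd, the small cytochrome b subunit (chromosome 9, 50596340 to 50603849), went from 245, 235 and 220 CPM to 116, 115 and 137 CPM, with the deepest fall among the subunits (-0.93, SE 0.12, adjusted p = 1.84e-05). Sdhc, the other anchor, had the shallowest fall, from 150 ± 5.0 to 112 ± 9.97 CPM (-0.42, adjusted p = 0.00742). Whether Sdhd and Sdhc differ from each other was not tested.

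The assembly factors of complex II are rare transcripts. Sdhaf4, which helps the flavinated Sdha protein meet Sdhb (chromosome 1, 23995939 to 24005640), went from 11.9, 12.7 and 12 CPM to 4.77, 6.39 and 4.84 CPM. That is the deepest fall in the complex (-1.19, SE 0.21, adjusted p = 0.0002), with tight controls and no overlap. Sdhaf3, which helps mature the iron-sulfur subunit, went from 5.22, 6.71 and 6.15 CPM to 3.75, 3.51 and 2.71 CPM (-0.86, SE 0.27, adjusted p = 0.0125), and this call was lost without control replicate 2 (-0.80). Sdhaf1, which serves iron-sulfur insertion into Sdhb, did not pass the test, with 6.16, 4.52 and 5.13 CPM in controls and 6.05, 5.48 and 4.56 CPM in LPS livers. Sdhaf2, which attaches the flavin to Sdha, did not pass either, with 19.9, 20.7 and 23.9 CPM against 21.2, 16.5 and 22.2 CPM. The groups of both genes overlapped. Exons of both, and those of Sdhaf4, share bases with a gene on the opposite strand, whose reads cannot be told apart without strand.

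Complex III, the cytochrome bc1 complex, moves electrons from ubiquinol to cytochrome c. Of its 8 nuclear members 6 fell and 2 did not pass the test, with a median log2 fold change of -0.57. The large core proteins and the Rieske subunit all fell, and the small subunits were split. Uqcrfs1, the Rieske iron-sulfur protein of the electron path (chromosome 13, 30540312 to 30545316), read 238, 256 and 239 CPM in controls and 155, 136 and 142 CPM in LPS livers. Its log2 fold change was -0.76 (SE 0.12, adjusted p = 7.18e-05), with close replicates on both sides and a wide gap between them. The core proteins Uqcrc1 and Uqcrc2, which form the matrix side of the complex, fell by 0.63 and 0.75 on the log2 scale. In both of them LPS replicate 3 was the highest LPS library, at 188 CPM for Uqcrc1 and 123 CPM for Uqcrc2, and still below every control.

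Among the small subunits of complex III the largest fall was in Uqcr11 (chromosome 10, 80402997 to 80406821), from 139, 155 and 122 CPM to 70.6, 72.6 and 83.7 CPM (-0.87, SE 0.13, adjusted p = 5.82e-05). Uqcr10, a small membrane subunit, fell by 0.52 on the log2 scale. Uqcrq, the most abundant member of complex III by CPM, read 422, 468 and 353 CPM in controls and 364, 314 and 292 CPM in LPS livers. It fell by a small amount (-0.36, SE 0.14, adjusted p = 0.0402) and its groups overlapped, since the highest LPS library was above the lowest control. Leaving out control replicate 1 (-0.35) or 2 (-0.28), or LPS replicate 2 (-0.33) or 3 (-0.28), ended the call. Uqcrh, the hinge protein that helps dock cytochrome c, did not pass, at 217 ± 33.5 CPM in control and 223 ± 24.4 CPM in LPS livers. Uqcrb, a subunit at the ubiquinone-binding region, did not pass with -0.30 (SE 0.14, adjusted p = 0.0692). It has 3 annotated pseudogene transcripts with at least 95% identity over at least 100 bases, and passed in 6 other settings, for example with -0.37 when libraries were scaled by their totals alone and -0.67 with the correction for transcript length and GC.

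Complex IV, cytochrome c oxidase, hands electrons to oxygen. Of its 12 tested members 6 fell, 1 rose and 5 did not pass, with a median log2 fold change of -0.36. Of the 10 ubiquitous subunits 5 fell, 0 rose and 5 did not pass, and all 10 had a log2 fold change below 0. With a correction for transcript length and GC content 10 of the 12 tested members fell and 0 rose, so the split within complex IV depends on that setting.

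Cox4i1, the regulatory subunit (chromosome 8, 120668225 to 120674209), was the most abundant member of complex IV, at 417, 422 and 348 CPM in controls and 375, 359 and 371 CPM in LPS livers. The LPS values sat inside the control range, and the log2 fold change was -0.10 (SE 0.12, adjusted p = 0.489). Cox6a1, the form of subunit 6a found in liver, read 260, 256 and 206 CPM in controls and 203, 175 and 207 CPM in LPS livers (-0.30, adjusted p = 0.0608). Only control replicate 3 overlapped with the LPS libraries, and without it Cox6a1 fell (-0.43). Its call depends on the setting, since it also fell with library totals alone (-0.37), DESeq2 (-0.31) and limma-voom (-0.30). Upper-quartile scaling, other filters on low counts and the correction for length and GC gave the same call. Of the remaining ubiquitous subunits Cox6b1 (-0.23), Cox6c (-0.11) and Cox7c (-0.14) did not pass. With the correction for length and GC they fell (-0.50, -0.40 and -0.44), and Cox6b1 fell without control replicate 3 as well (-0.36).

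The 5 ubiquitous subunits of complex IV that fell were Cox5a, Cox5b, Cox7a2, Cox7b and Cox8a. Cox7b, a small membrane subunit (chromosome X, 106015700 to 106022450), went from 135, 145 and 131 CPM to 78.0, 56.9 and 87.1 CPM. It had the deepest fall among them (-0.89, SE 0.15, adjusted p = 0.000166), and every LPS library was far below every control. Cox8a, the form of subunit 8 used by most tissues, went from 252, 234 and 205 CPM to 146, 132 and 176 CPM (-0.60, SE 0.14, adjusted p = 0.00173). Cox5a, which sits at the matrix face, fell by 0.53 and Cox5b, the zinc-binding subunit, by 0.42 on the log2 scale. The call of Cox5b was lost without LPS replicate 2 (-0.33).

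The called genes of the 7a family had opposite signs. Cox7a2, the liver form, fell from 180, 200 and 154 CPM to 138, 106 and 118 CPM (-0.56, SE 0.14, adjusted p = 0.00312). Cox7a2l (chromosome 17, 83501917 to 83514333) is a relative of subunit 7a that joins complexes III and IV in supercomplexes, and the C57BL/6 strain is known to carry a shortened allele with an unstable product. It was the only member that rose, from 83.4, 76.6 and 73.0 CPM to 92.1, 96.2 and 110 CPM (0.36, SE 0.12, adjusted p = 0.0207). All LPS values were above all control values, by a narrow margin. Leaving out control replicate 2 (0.32) or 3 (0.29), or LPS replicate 3 (0.29), ended the call, as did the correction for length and GC (0.23). Cox7a1, the heart and muscle form, was under 1 CPM in every library, from 0.256 to 0.779 CPM in controls and from 0.141 to 0.427 CPM in LPS livers.

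The other tissue forms of complex IV were nearly silent. Cox7b2, Cox8b and Cox8c had no count in any library, where 3 counts correspond to 0.148 to 0.261 CPM. Cox4i2, the form of lung and of cells short of oxygen, had counts in LPS replicate 3 alone (0.285 CPM). Cox6a2, the heart and muscle form of subunit 6a, had counts in control replicate 2 (0.292 CPM) and LPS replicate 2 (0.141 CPM). The 8 skeletal muscle markers summed to 0.681 to 1.25 CPM in controls and 0.427 to 1.02 CPM in LPS livers, with Mb and Actn3 at 0 throughout. Cox6b2, the testis form of subunit 6b (chromosome 7, 4751792 to 4753094), passed the filter on low counts through its control libraries. It had 56, 66 and 23 counts in controls and 2, 14 and 6 counts in LPS livers, or 3.02 ± 1.45 and 0.527 ± 0.416 CPM. It fell by 2.45 on the log2 scale (SE 0.59, adjusted p = 0.00253), with no overlap but few reads. Of the summed Cox6b counts Cox6b2 made up 1.55% in controls and 0.345% in LPS livers. The testis markers Tnp1, Prm2, Odf1 and Akap4 were at 0 in every library.

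Complex V is the ATP synthase. Of its 17 members 11 fell, 0 rose and 6 did not pass, with a median log2 fold change of -0.57. All 9 tested genes of the F1 head, the central stalk and the peripheral stalk fell, 2 of 4 membrane subunits fell, and 0 of the 3 genes of the c-ring passed. Summed over genes, the F1 head stood at 59.5% of its control mean in LPS livers, the central stalk at 53.1%, the peripheral stalk at 62.7%, the membrane subunits at 76.0% and the c-ring at 89.9%. Differences between these parts were not tested.

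**Figure D3:**
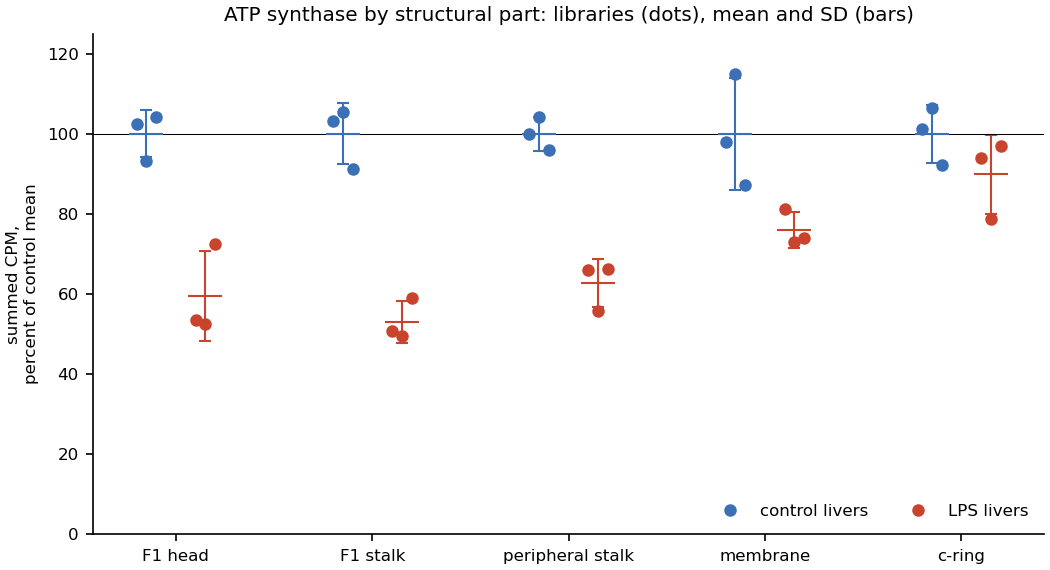
Summed CPM of each structural part of ATP synthase as a percentage of its control mean (vertical axis from 0). Dots are the 3 control (blue) and 3 LPS (red) libraries, with mean and SD. LPS and control libraries are apart in the F1 head, both stalks and the membrane subunits, and they overlap in the c-ring, whose LPS mean is 89.9% of control.

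Atp5b, the catalytic beta subunit of the F1 head (chromosome 10, 128083307 to 128090388), was the most abundant member of all by CPM. It read 1094, 986 and 1114 CPM in controls and 536, 520 and 767 CPM in LPS livers, with LPS replicate 3 again the highest of its group and below all controls. Its log2 fold change was -0.81 (SE 0.16, adjusted p = 0.000561). Atp5a1, the alpha subunit that alternates with beta in the head, went from 974 ± 50.6 to 604 ± 92.1 CPM (-0.69, SE 0.14, adjusted p = 0.000699). Its lowest control library, at 916 CPM, was above the highest LPS library, at 711 CPM. All 3 genes of the central stalk fell. Atp5d, the delta subunit at the foot of the stalk (chromosome 10, 80138698 to 80145828), measured 299 ± 30.4 CPM in control and 137 ± 14.2 CPM in LPS livers (-1.13, SE 0.13, adjusted p = 5.4e-06). Atp5c1, the gamma shaft, fell by 0.88 and Atp5e, the epsilon subunit, by 0.57 on the log2 scale.

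The peripheral stalk keeps the head from turning with the shaft, and all 4 of its tested genes fell. Atp5o, the oligomycin sensitivity protein at its top (chromosome 16, 91925223 to 91931630), had the deepest fall in complex V, from 166, 183 and 168 CPM to 79.9, 68.4 and 79.9 CPM. Its log2 fold change was -1.18 (SE 0.12, adjusted p = 1.71e-06), with close replicates and a gap wider than either group's range. Atp5h, the d subunit, fell by 0.82 and Atp5j, coupling factor F6, by 0.77 on the log2 scale. Atp5f1, the b subunit that spans the stalk, had the smallest change of the 4 (-0.36, SE 0.12, adjusted p = 0.0168), and the call was lost without LPS replicate 2 (-0.30). Exons of Atp5o, Atp5j and Atp5f1 share bases with other annotated genes: Atp5o with Donson on the same strand, Atp5j with Gabpa and Atp5f1 with Wdr77 on the opposite strand. Reads from such pairs cannot be told apart in the tables.

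In the membrane part, Atp5k, the e subunit (chromosome 5, 108433246 to 108434399), went from 60.1, 67.2 and 54.8 CPM to 31.9, 35.1 and 35.0 CPM (-0.84, SE 0.13, adjusted p = 5.57e-05). The LPS values were close together and far below the controls. Atp5j2, the f subunit, fell by 0.52 on the log2 scale. Atp5l, the g subunit, did not pass, at 65.0 ± 7.74 CPM in control and 64.9 ± 6.55 CPM in LPS livers. It has 9 annotated pseudogene transcripts with at least 95% identity, the most of any member, so its level is uncertain. Atp5mpl, a small proteolipid, did not pass (-0.27, adjusted p = 0.128), but fell with the correction for length and GC (-0.75). Atp5s, the rare coupling factor B, did not pass, at 8.73, 13.8 and 7.56 CPM against 8.35, 8.92 and 5.84 CPM. The gene once called Atp5sl is listed under another symbol and is no member.

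The genes Atp5g1, Atp5g2 and Atp5g3 encode the same mature c subunit behind different import sequences. Atp5g3 (chromosome 2, 73908447 to 73912464) was the main one, at 535, 571 and 505 CPM in controls and 501, 399 and 481 CPM in LPS livers. The LPS values lay just below the controls without overlap, but the gene did not pass the test (-0.22, SE 0.13, adjusted p = 0.154). With the correction for length and GC it fell (-0.46). Atp5g2 did not pass with 69.2, 68.6 and 52.5 CPM against 54.0, 46 and 62 CPM, and its groups overlapped. Atp5g1 (chromosome 11, 96072793 to 96075694) read 117, 119 and 99.4 CPM in controls and 115, 115 and 147 CPM in LPS livers (0.17, SE 0.14, adjusted p = 0.287). The highest value of the 6 was LPS replicate 3, and the other LPS libraries lay inside the control range. As a share of the Atp5g counts, Atp5g1 made up 16.2%, 15.6% and 15.1% in controls and 17.1%, 20.6% and 21.4% in LPS livers. These shares did not overlap, while Atp5g3 went from 75.5% ± 1.35 (SD) to 71.9% ± 2.64 with overlap. The change of shares was not tested.

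Per kilobase of transcript (CPM divided by the median length of the gene's RefSeq coding transcripts), Atp5g3 had the highest level of all members in controls, at 748 CPM per kb, followed by Atp5b at 556 and Cox4i1 at 524. In LPS livers the same scale gave 641 for Atp5g3, 488 for Cox4i1 and 407 for Uqcrh, while Atp5b stood at 317. The most abundant transcripts per kilobase thus included genes that did not pass the test. Lengths differ between transcripts of a gene, for example 0.596 to 4.715 kb for Atp5g1 and 0.405 to 1.521 kb for Uqcrq. These levels are therefore rough, and their order, the top rank included, depends on the length used.

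Falls were found among short and long transcripts. Of the 26 tested members with transcripts under 1 kb 15 fell, and their median log2 fold change was -0.52, and of the 19 longer ones 14 fell and 1 rose, with a median of -0.63. Of all 799 tested genes under 1 kb 261 fell and 196 rose, with a median of -0.10, below that of all genes. Of the 11260 longer ones 3482 fell and 3584 rose, with a median of 0.023. Control replicate 3 was the lowest control in the sum of the short members, at 3775 CPM against 4365 and 4688 CPM, but not in that of the longer members. Among all 51 members, 16 share exon bases with another annotated gene and 14 have pseudogene transcripts of at least 95% identity. Members that fell are among both, for example Uqcrc2, Atp5a1 and Atp5d by exon bases and Uqcr11, Cox7b, Atp5c1 and Atp5h by pseudogenes. The sources used here do not say how the counting treated strand and reads that map to several places, so values of these members are less certain.

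Other genes of the same machinery were read from the same test. Of 36 tested complex I subunits 27 fell and 0 rose, with a median log2 fold change of -0.55, close to the median of the members. Among all tested genes 31.0% fell and 31.3% rose. Ndufs7, an iron-sulfur subunit, went from 105 ± 18.7 to 34.6 ± 4.5 CPM (-1.60, adjusted p = 7.43e-07), and Ndufa6 fell by 1.43 on the log2 scale. Cyc1, the haem-bearing cytochrome c1 of complex III, which the symbol rule leaves out, fell from 250 ± 21.0 to 128 ± 17.8 CPM (-0.96, adjusted p = 2.81e-05). Ndufa4, now counted with complex IV, fell by 0.35 on the log2 scale, a call lost without control replicate 2 (-0.23) or LPS replicate 2 (-0.32) or 3 (-0.28). Cycs, the mobile carrier cytochrome c (-0.17), and Atpif1, the inhibitor of ATP synthase (0.17), did not pass.

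Genes of the mitochondrial genome were lower too. Of the 6 mitochondrially encoded subunits of complexes III to V 4 fell and 0 rose, beside 31.0% and 31.3% of all tested genes. mt-Cytb, the cytochrome b of complex III, read 7946, 8755 and 7935 CPM in controls and 4430, 4486 and 5897 CPM in LPS livers (-0.73, SE 0.15, adjusted p = 0.000971). mt-Co1, the catalytic subunit of complex IV and the most abundant, did not pass (-0.38, SE 0.18, adjusted p = 0.0727) but fell in 8 other settings, for example with DESeq2 (-0.39) and without LPS replicate 3 (-0.59). Its LPS replicate 3 reached 11000 CPM, within the control range. The call of mt-Atp6 was lost without control replicate 2 (-0.29 in place of -0.75) or LPS replicate 3 (-0.67). The other 4 (mt-Co2, mt-Co3, mt-Atp6 and mt-Atp8) had far fewer counts than mt-Cytb and mt-Co1. In controls mt-Co2 stood at 47.8 ± 4.57 CPM and mt-Co3 at 32.4 ± 6.04 CPM, and they fell by 0.67 and 0.89 on the log2 scale. Subunit genes from base 7013 to 10173 of the mitochondrial genome all had control means of 0.886 to 47.8 CPM. Beside them stood mt-Co1 (11219 CPM) and mt-Nd4 of complex I (3854 CPM). The reason for this gap was not tested. The levels and calls of mt-Co2, mt-Co3 and mt-Atp6, and the share below, are therefore less certain. All genes of mitochondrial DNA together took 4.08% ± 0.218 (SD) of the counts in controls and 2.57% ± 0.236 in LPS livers.

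Assembly factors of complexes III to V ran from -3.56 to 1.79 in log2 fold change. The lowest value was that of Lyrm7, with 26, 26 and 22 counts in controls and 0, 2 and 3 in LPS livers. Lyrm7 thus passed the filter on low counts through its control libraries. Of 31 tested 17 fell and 4 rose, with a median of -0.54, where 31.0% of all tested genes fell and 31.3% rose. Coa5, needed early in the assembly of complex IV and the most abundant of the list, went from 128 ± 11.9 to 56.1 ± 7.03 CPM (-1.19, adjusted p = 3.58e-06). Cox18, which inserts mt-Co2 into the membrane, rose from 6.30 ± 1.24 to 21.8 ± 2.01 CPM (1.79, adjusted p = 1.97e-06). The other 3 that rose were Cox10 (0.70), Cox17 (1.02) and Higd1a (0.72), named after their values were seen. Without a control library or LPS replicate 1, and with the correction for length and GC, the Cox17 call was lost (0.53 to 1.05).

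Regulators of these genes moved both ways, with 10 of 18 tested lower and 4 higher. Over all tested genes 31.0% fell and 31.3% rose, so changes both ways are not particular to this list. Ppargc1a, the coactivator that drives mitochondrial gene programmes, fell from 15.2, 32.3 and 21.2 CPM to 6.99, 4.92 and 6.13 CPM (-1.94, SE 0.26, adjusted p = 1.87e-05). Its controls were widely spread, and all of them were above the LPS livers. Nrf1, a factor whose letters were searched above, rose from 10.4, 14.0 and 11.0 CPM to 21.9, 24.4 and 19.9 CPM (0.90, SE 0.17, adjusted p = 0.000395). Of the ERR genes, whose letters were searched too, Esrra fell from 26.9 ± 6.16 to 14.3 ± 3.98 CPM (-0.91, adjusted p = 0.00179). Esrrg, a rare transcript at 2.21 ± 0.306 CPM in controls, fell as well (-2.87, adjusted p = 0.00272). It had 26, 42 and 40 counts in controls and 0, 10 and 2 in LPS livers. It thus passed the filter on low counts through its control libraries. Yy1 did not pass (-0.23, adjusted p = 0.144) but fell without control replicate 1 (-0.33). The ERR genes and Yy1 were named after their values were seen. Of the genes of GABP, Gabpb1 rose by 1.59 (adjusted p = 2.39e-06) and Gabpa, with overlapping exons on the strand opposite to Atp5j, by 0.33 (adjusted p = 0.0342), while Gabpb2 did not pass (0.15, adjusted p = 0.371). The Gabpa call was lost in 8 settings, among them scaling by library totals (0.27), DESeq2 (0.33) and leaving out any control library (0.26 to 0.37) or LPS replicate 1 (0.25) or 2 (0.33). Tfam, which packages and transcribes mitochondrial DNA, did not pass (0.092, adjusted p = 0.519). Polg2, the accessory subunit of the mitochondrial DNA polymerase, fell by 2.98 on the log2 scale from 6.06 ± 0.78 CPM. With 13, 9 and 8 counts in LPS livers, Polg2 also passed the filter on low counts through its control libraries. Lrpprc, which stabilises mitochondrial mRNA, fell by 0.80.

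Of 13 genes of other mitochondrial functions (import, outer-membrane channels, chaperones, citrate synthase and prohibitins) 5 fell and 0 rose, with a median log2 fold change of -0.026. For comparison, 31.0% of all tested genes fell and 31.3% rose. Phb, a prohibitin scaffold of the inner membrane, fell by 1.60 and Vdac1, an outer-membrane channel, by 0.91 on the log2 scale. Hspd1, the chaperonin and the most abundant of the list, did not pass (-0.27, adjusted p = 0.0949), though it fell with library totals (-0.35), the correction for length and GC (-0.31) and without control replicate 1 (-0.36). Citrate synthase (Cs) and the import receptor Tomm20, chosen after their values were seen, read 92.0 ± 4.22 and 50.6 ± 3.09 CPM in controls and 101 ± 1.56 and 50.6 ± 5.06 CPM in LPS livers, and neither passed. Without control replicate 1 or LPS replicate 3, and with the correction for length and GC, 1 gene of this list rose.

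**Figure D4:**
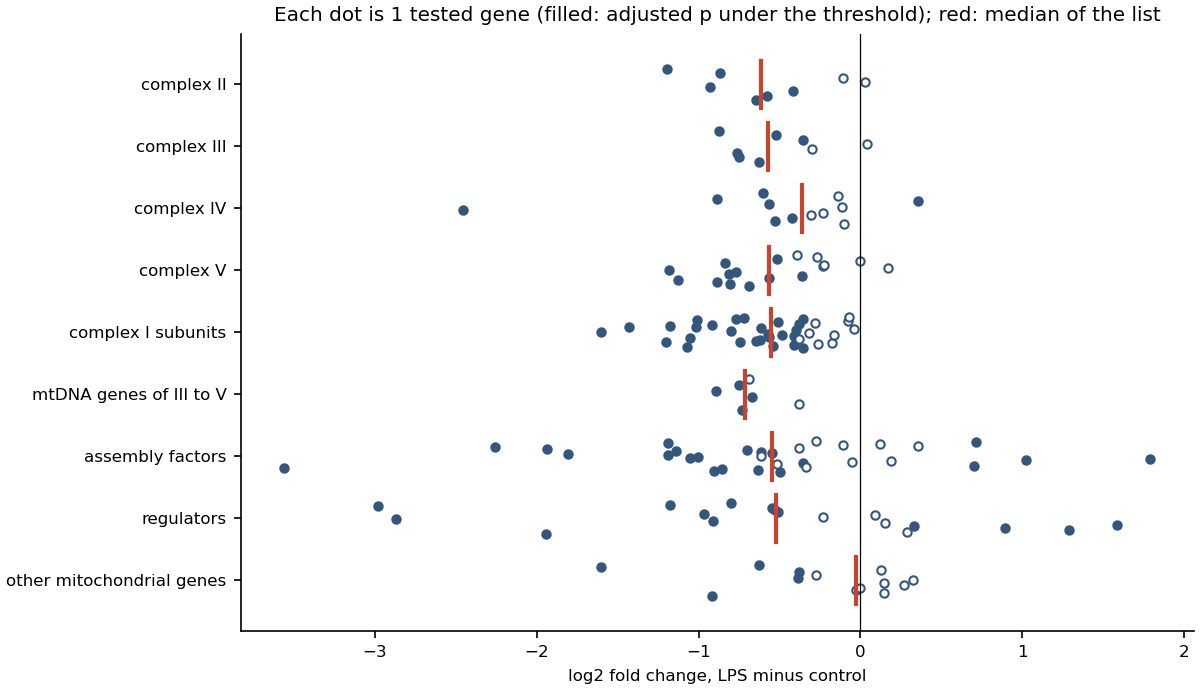
Log2 fold change (LPS minus control, horizontal axis) of each tested gene in the 4 complexes and in 5 lists of related genes; filled dots passed the adjusted p threshold, open dots did not, and red bars are list medians. The medians of complexes II to V run from -0.61 to -0.36, that of complex I is -0.55, and that of other mitochondrial genes is near 0 (-0.026).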

How the data were processed

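Total RNA of liver was extracted with Trizol and sequenced as 6 libraries, per the labels. The submitters' processing notes name bcl2fastq 2.0, HISAT2, StringTie, DESeq2, limma and mm10 without roles. The authors deposited raw counts per gene, 1 table per library, not normalized. Of the counts from 1 to 20, 89.1% to 90.8% were even, against 50.75% to 51.85% of those above 200, so low counts hold fewer independent fragments than their number. The column headers number the libraries of each group in a separate range, whose meaning is not stated and cannot be told apart from treatment. Genes were named by Entrez identifier (20722 of 22488, GRCm38.p6), symbol (879) or as deposited (887).

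The members, lists, alternatives and the rule for named genes were chosen with earlier results of these data known. The rule takes the 2 most abundant members of each complex, the largest called rise and fall, isoform sets, catalytic subunits and assembly factors, and in each list the most abundant gene and the 2 with the smallest adjusted p; 1 gene it takes is not reported here. Groups were compared in R 4.3.3 with edgeR 4.0.16 (quasi-likelihood F test, 2-sided, TMM, filterByExpr with minimum count 10 and minimum total 15), with Benjamini-Hochberg adjustment over 12078 genes and a threshold of 0.05. CPM uses TMM library sizes, and values are mean ± SD of 3 libraries. The common biological coefficient of variation was 16.4%. Libraries within a group differed beyond sampling noise (ratio of chi-square to degrees of freedom 11.6 to 31.2), and floors cover counting error only. Pseudogenes were matched with BLAST 2.17.0. The test was run on simulated counts with 200 genes changed. That is far fewer than the 7528 genes called here, so the simulation does not check the test under such wide change. Alternatives were other scalings, filters and tools (DESeq2 1.42.0, limma 3.58.1), a replicate block, a length and GC correction, leaving out each library and, added after seeing the data, halved counts and the shortest transcript length.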

Additional observations from a re-analysis of the deposited data

How the results depend on the processing

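No member that passed the test changed sign in any setting, while 6 that did not pass did. Of 45 tested members 23 fell in all 17 settings, and 0 rose in all of them. The correction for transcript length and GC content moved most: all members called higher went from 1 to 0, complex IV from 1 higher and 6 lower to 0 and 10, the medians to -0.67 (all members), -0.55 (complex IV) and -0.75 (complex V), and 1 gene of other mitochondrial functions rose. Under it Uqcrb, Cox6a1, Cox6b1, Cox6c, Cox7c, Atp5g3 and Atp5mpl fell, and the cause was not tested. Counting structural subunits only leaves out Cox7a2l by construction, so 0 rose in all members and in complex IV. Leaving out 1 library in turn gave 0 to 1 members called higher, with the same range in complex IV. In the list of Cyc1, Cycs, Ndufa4, Usmg5 and Atpif1 it left 1 to 2 genes called lower, against 2 in the main fit. Of the genes of other mitochondrial functions 0 to 1 were then called higher. Over all members and settings, 684 calls kept their side of the threshold, 20 passed it newly and 11 lost it. Halved counts, chosen after seeing the data, changed 0 of 45 calls. With the shortest transcript length, also chosen then, Atp5g1 made up 17.3% and 21.6% of the Atp5g level per kb in control and LPS livers, against 4.79% and 6.24%. Replicate numbers recur in both groups. Libraries with equal numbers correlated at -7.448e-04, 0.104 and 0.0352, and others at -0.121 to 0.0741. These ranges overlap, and the highest value was that of control and LPS replicate 2 (0.104). With 3 libraries a group, such values cannot decide whether the numbers pair the libraries. A fit with the replicate block gave 29 members called lower and 1 higher, and all 45 calls stayed. The 6 tissue forms with 0 to 10 counts a library could not be tested. Scaling by library totals moved the median of all genes from 0.013 to -0.055.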
